A study of Mus musculus with 6 samples.

Results

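The 39 Hox genes of the mouse, the protein-coding genes of the Hoxa, Hoxb, Hoxc and Hoxd clusters, were read in order of cluster and paralog number from 6 assembled spinal cord transcriptomes. They were chosen by name from the 55450 genes of the annotation, and 28 of them were among the 12894 genes expressed highly enough to be tested between genotypes. The tissue was the ventral part of the lumbar cord, dissected from C57BL/6 mice 5 weeks old, and poly-adenylated RNA was sequenced. The 3 WT and 3 Gde2KO libraries form the only comparison. Gde2KO mice are null for Gdpd5, which encodes GDE2, a membrane enzyme that cleaves glycosylphosphatidylinositol anchors, and nothing in the labels states that the deletion is confined to a cell type. The series asks how GDE2 acts on Wnt signalling in neurons and on the maturation of oligodendrocytes, so the Hox genes stand beside its stated question. The labels do not say whether a library is 1 animal or a pool, and p-values here measure only the spread between these libraries.

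Hox genes encode homeodomain transcription factors that give cells their position along the head-to-tail axis. Genes of the same number in different clusters are paralogs, and within a cluster the low-numbered genes at the 3′ end are switched on earlier and further rostrally than the high-numbered genes at the 5′ end. In the developing spinal cord they set motor neuron identity: Hox5 genes in the phrenic motor neurons, Hox6 and Hox8 genes at the forelimb level, Hoxc9 at the thoracic level, and Hox10 and Hox11 genes at the hindlimb level and below. The proteins bind DNA with cofactors of the Pbx and Meis families, and Polycomb and trithorax proteins keep the clusters silent or active after the embryonic signals have gone.

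The members lie in 4 clusters on genome build GRCm38. Hoxa lies on the minus strand of chromosome 6. On the plus strand, Hoxb spans chr11:96194316-96368256, Hoxc spans chr15:102921103-103036852 and Hoxd spans chr2:74668310-74765142. A level is given in FPKM (fragments mapped to a transcript, scaled to its length and to the depth of the library). It is averaged over the exonic bases of a gene that no other gene shares and that were assembled in at least 3 libraries. The scaling lets levels be compared between genes, but a level also depends on which bases were counted. Since whole tissue was sequenced, fewer cells of a type and less RNA per cell cannot be told apart.

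The libraries held 31899 to 33791 assembled transcripts, with relative depths of 0.91 to 1.14 and scaling factors of 0.989 to 1.04. Gdpd5 read 5.38, 6.54 and 5.95 FPKM in the WT and 1.24, 1.2 and 0.946 FPKM in the Gde2KO libraries, in the direction of the labels. The assembly of Gde2KO replicate 3 differed from the rest, with annotated splicing throughout in 56.2% of its spliced transcripts and in 49.3% to 49.8% of those of the other libraries. Gde2KO replicate 1 alone held the Y-linked gene Ddx3y (21.7 FPKM) and alone listed Xist, which coats the inactive X, at 0. The labels give no sex. Chat, the acetylcholine-synthesising enzyme of motor neurons, was present at 16.7 to 23.7 FPKM. The summed level of 15 markers of the superficial dorsal horn ran from 150.0 to 176 FPKM in WT and from 107 to 221 FPKM in Gde2KO, lowest in replicate 3 and highest in replicate 1. Of these markers 1, Nmu, was listed at 0 throughout. Their part in the results was not tested.

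In all 6 libraries the summed Hox level was highest in paralog group 10. The 39 members together read 273, 231 and 252 FPKM in the WT and 249, 234 and 198 FPKM in the Gde2KO libraries, and the groups overlapped (exact permutation test, two-sided, p = 0.4, 3 libraries against 3). Group 10 held 32.5%, 31.0% and 31.2% of this sum in WT and 32.6%, 27.2% and 29.5% in Gde2KO. Group 9 followed with 14.3% to 18.3%, group 8 with 12.05% to 14.9% and group 7 with 10.1% to 11.2%. Group 11 held 4.84% to 8.58%. Groups 1 to 5 together held 12.2% to 15.2%. No member of group 12 or 13 had counted bases, since no base of theirs was assembled in 3 libraries. The ranges of groups 10 and 11 lay far apart, whereas neighbours such as groups 8 and 9 overlapped in their ranges. The sums and shares also carry gaps in the assembly. The second exon of Hoxd10, of group 10, was assembled over 13.9% of its length in WT replicate 2 and 4.14% in Gde2KO replicate 2. Its bases not assembled there count as 0, and their part in the values of replicate 2 was not tested.

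**Figure D1:**
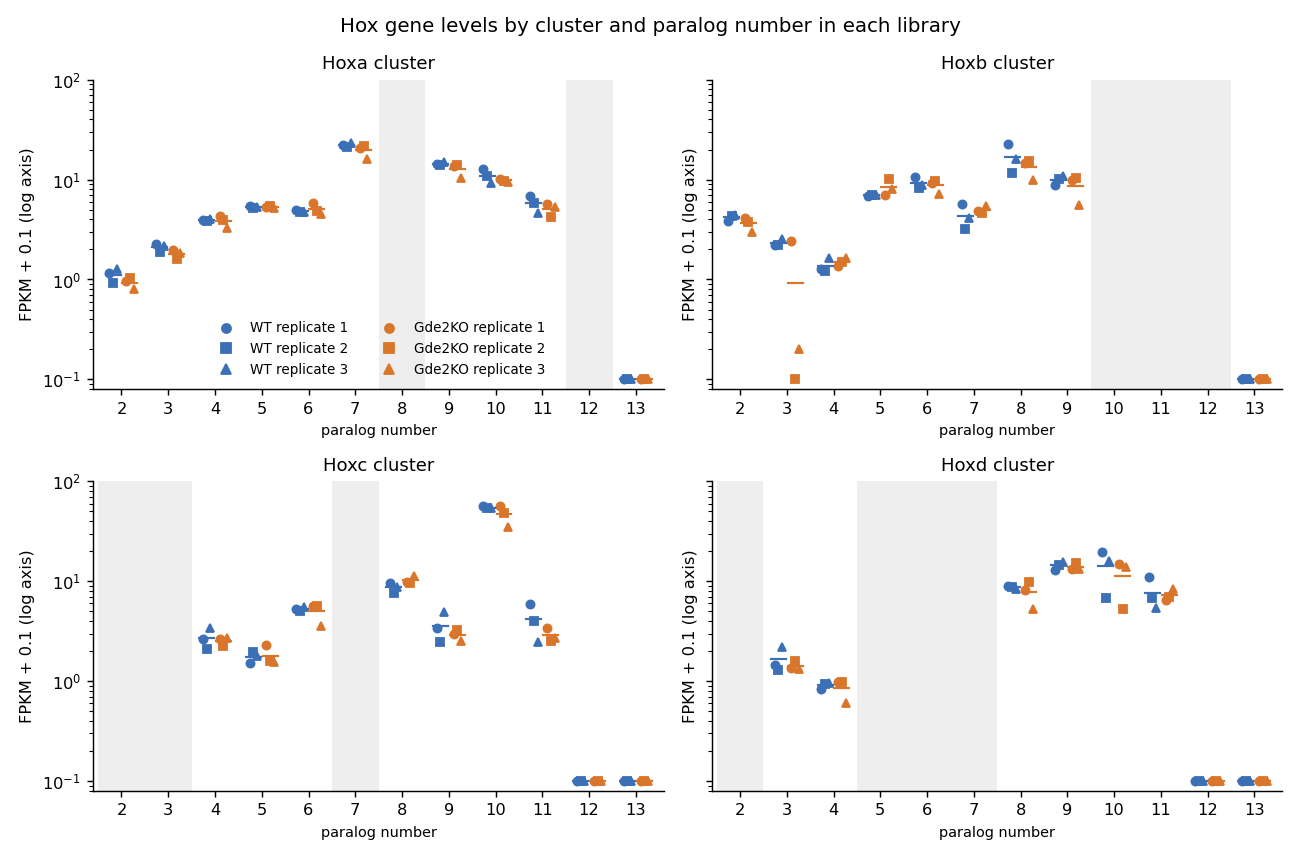
Level of the Hox genes of paralog groups 2 to 13 (FPKM + 0.1, log axis) against paralog number, with a panel per cluster, points for the 6 libraries and bars for the means of 3. Hoxc10 stands highest, at 35.2 to 56.6 FPKM, groups 2 to 4 are low in each cluster that has them, groups 12 and 13 are at the floor, and numbers shaded grey have no gene in that cluster.

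The 4 clusters contributed unequally. Hoxc, with Hoxc10, held 29.8% to 33.2% of the sum, Hoxa 26.7% to 29.4%, Hoxb 20.3% to 23.5% and Hoxd 16.9% to 21.5%. Between genotypes the share of a cluster differed by less than the spread between libraries: the means were 27.8% and 28.0% for Hoxa, 21.5% and 21.7% for Hoxb, 31.9% and 31.4% for Hoxc, and 18.8% and 18.9% for Hoxd (WT and Gde2KO, SD 0.604 to 2.31 percentage points, n = 3). Of the 39 sums, shares and ratios compared over clusters and paralog groups, 2 reached the lowest p that 3 libraries against 3 allow, an exact permutation p of 0.1, two-sided. Their adjusted p was 0.78. They were the Hoxa sum, at 68.0 to 73.0 FPKM in WT and 56.2 to 67.9 FPKM in Gde2KO, and the sum of group 5, at 13.5 to 13.8 FPKM in WT and 14.4 to 16.9 FPKM in Gde2KO.

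**Figure D2:**
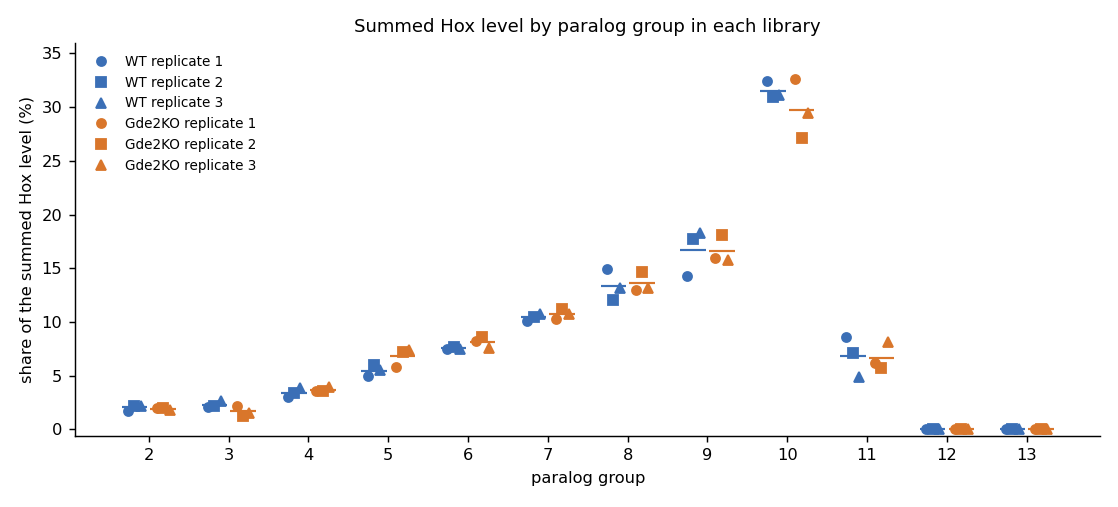
Share of the summed Hox level (percent) held by each paralog group from 2 to 13, with points for the 6 libraries and bars for the means of 3. Group 10 stands highest in every library, at 27.2% to 32.6%, and WT and Gde2KO points interleave in groups 8, 9 and 11. The group 10 values in replicate 2 of each genotype include a Hoxd10 exon that was assembled only in part.

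No Hox gene passed the test between genotypes. The test was limma on log2(FPKM + 0.1) over all 12894 genes. It was two-sided, and a gene was called at a Benjamini-Hochberg adjusted p under 0.05. It called 0 of the 28 members, where it called 15 of all genes tested, or 0.116%, with 0.0388% called higher and 0.0776% called lower in Gde2KO. The adjusted p of the members ran from 0.882 to 0.992. At an unadjusted p under 0.05 the count was also 0, against 3.91% of all genes. The estimates leaned one way: 21 members had a lower and 7 a higher mean log2 level in Gde2KO, and the median difference was -0.16, against 49.9% of all genes lower and a median of 0.00. The lean rested in part on Gde2KO replicate 3, the lowest library in 11 of the 28 members and in 25.4% of all genes tested. Without that library 16 members were lower and 12 higher, with a median of -0.05. WT replicate 1 was the highest library in 10 of the 28 members and in 18.6% of all genes tested. Without it 20 members were lower and 8 higher, with a median of -0.09. Without Gde2KO replicate 1 the counts were 22 and 6, with a median of -0.20. The Gde2KO sum was 9.94% below the WT sum with all libraries, 4.19% below without Gde2KO replicate 3 and 5.93% below without WT replicate 1.

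**Figure D3:**
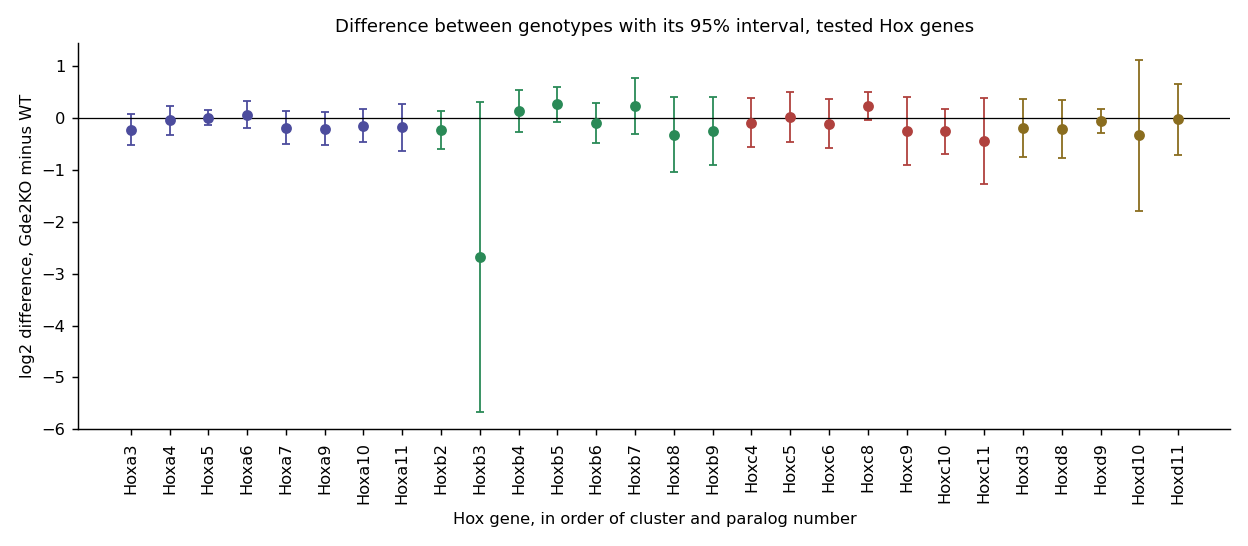
Log2 difference of the 28 tested Hox genes (Gde2KO minus WT) in order of cluster and paralog number, with points for the estimates and bars for 95% intervals from limma, coloured by cluster. Every interval spans 0, and that of Hoxb3 is the widest, from -5.66 to 0.32.

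The intervals show which sizes the data leave possible. The median half-width was 0.44 on the log2 scale for the members and 0.28 for all genes tested. It was narrowest for Hoxa5, a gene of the phrenic motor neurons, whose fold of Gde2KO over WT was 1.01 with an interval of 0.913 to 1.11. For Hoxd9 the fold was 0.963 (0.818 to 1.14). For Hoxc10 it was 0.84 (0.622 to 1.14). Where the groups did not overlap, 1 member was lower (Hoxa9) and 1 was higher (Hoxb5) in Gde2KO, while 5.79% and 5.06% of all genes tested behaved so.

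In the Hoxa cluster the level was highest at Hoxa7 and lower again from Hoxa9 to Hoxa11. Hoxa2, which acts in the hindbrain and the pharyngeal arches, lay between 0.695 and 1.17 FPKM. Hoxa3, known for its part in the thymus and parathyroid, read 2.16, 1.78 and 2.05 FPKM in WT and 1.87, 1.51 and 1.72 FPKM in Gde2KO, and the groups overlapped. Hoxa4 read 3.81, 3.76 and 3.97 FPKM in WT and 4.202, 3.87 and 3.19 FPKM in Gde2KO. Hoxa5 read 5.31, 5.04 and 5.22 FPKM against 5.26, 5.34 and 5.11 FPKM, the tightest values of any tested member. Hoxa6 read 4.86, 4.59 and 4.68 FPKM against 5.69, 4.79 and 4.40 FPKM. Hoxa5 and Hoxa6 were joined in 1 assembled transcript in all 6 libraries, so their levels are not separate measurements.

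Hoxa7 was the highest Hoxa gene. It read 22.0, 21.1 and 22.9 FPKM in WT and 20.8, 21.7 and 15.9 FPKM in Gde2KO, where replicate 3 was the lowest of the 6 and replicate 2 lay within the WT range. Hoxa9, which acts at trunk levels and in blood-forming cells, read 14.1, 14.05 and 14.8 FPKM in WT and 13.5, 13.9 and 10.2 FPKM in Gde2KO. The groups did not overlap, but the nearest libraries differed by little, and the log2 difference of -0.20 (95% interval -0.52 to 0.12) did not pass (limma adjusted p = 0.882). Hoxa10, a gene of the lumbar level, read 12.7, 10.8 and 9.09 FPKM in WT and 10.1, 9.66 and 9.39 FPKM in Gde2KO. Hoxa11, needed for the forearm and the hindlimb level, read 6.72, 5.76 and 4.54 FPKM against 5.60, 4.13 and 5.22 FPKM. For both, WT replicate 1 was highest and the groups overlapped. The 5′ exon of Hoxa11 was assembled over 5.38% to 6.00% of its bases on the strand of the gene, while 79.8% to 100% of it was covered by transcripts on the opposite strand, where the RNA Hoxa11os is annotated. No source used here gives the strand setting of the libraries, so reads of the pair cannot be told apart, and the level of Hoxa11 rests on its 3′ exon. Hoxa13, which acts in digits and the hindgut, had no counted bases.

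In the Hoxb cluster Hoxb8 had the highest mean level. Hoxb8 takes part in dorsal horn and forelimb-level development and marks a lineage of microglia. Its level was 22.4, 11.5 and 16.1 FPKM in WT and 14.6, 15.1 and 9.72 FPKM in Gde2KO, with a wide spread among the WT libraries and overlap between the groups. Its last exon, of 1153 bases, was assembled in full in WT replicate 1 and over 2.6% to 9.02% of its bases in the other 5 libraries. Hoxb9, a thoracic gene, read 8.64, 10.1 and 10.8 FPKM in WT and 9.88, 10.4 and 5.50 FPKM in Gde2KO, low in replicate 3 only. Hoxb7 read 5.65, 3.08 and 3.99 FPKM against 4.75, 4.55 and 5.30 FPKM. Hoxb6 read 10.5, 8.23 and 8.70 FPKM against 9.17, 9.69 and 7.05 FPKM. The groups overlapped for all of these genes.

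Hoxb5 was the member whose groups did not overlap in the higher direction. It read 6.74, 6.90 and 6.89 FPKM in WT and 6.96, 10.1 and 8.01 FPKM in Gde2KO, a log2 difference of 0.27 (95% interval -0.08 to 0.61, limma adjusted p = 0.882). Gde2KO replicate 1 lay close above the highest WT library, at 6.96 against 6.90 FPKM, and the other 2 lay further up. The assembled transcript was 3221, 2920 and 3248 bases long in WT, where that of replicate 1 was joined to Hoxb6. In Gde2KO it was 2873, 1983 and 1899 bases long, shortest in the 2 libraries that lay further up. FPKM is scaled to this length, and its part in the difference was not tested. The sum of group 5 includes Hoxb5. Hoxb4, a gene of neck levels and blood stem cells, read 1.18, 1.10 and 1.54 FPKM in WT and 1.28, 1.38 and 1.55 FPKM in Gde2KO. Hoxb2, a gene of the hindbrain, read 3.73, 4.25 and 4.34 FPKM in WT and 4.07, 3.69 and 2.85 FPKM in Gde2KO. Hoxb1, a gene of the fourth rhombomere, and Hoxb13, which acts in the tail and prostate, had no counted bases.

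Hoxb3, a gene of the hindbrain and neck, had the lowest unadjusted p of the members, 0.0709 (limma adjusted p = 0.882). It read 2.14, 2.101 and 2.46 FPKM in WT, 2.34 FPKM in Gde2KO replicate 1, 0.0994 FPKM in Gde2KO replicate 3 and was listed at 0 in Gde2KO replicate 2. A level of 0 here means that no transcript was assembled over the counted bases, which is not a count of 0 reads. The long last exon of Hoxb3, 2385 bases, was assembled over at most 0.755% of its length on the strand of the gene in any library, while 36.1% to 75.1% of it was covered by transcripts on the opposite strand, where Hoxb3os is annotated. Hoxb3os itself read 3.09, 2.02 and 2.37 FPKM in WT and 3.19, 2.68 and 1.97 FPKM in Gde2KO. The spliced Hoxb3 transcripts of the 3 WT libraries reached that last exon by an intron of 849 bases, which no Gde2KO library had.

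In the Hoxc cluster Hoxc10 exceeded every other Hox gene. Hoxc10 is a marker of lumbar motor neurons. It read 56.6, 53.9 and 53.6 FPKM in WT and 56.3, 48.7 and 35.2 FPKM in Gde2KO, where replicate 1 lay within the WT range and replicate 3 far below it. This 1 gene made up 20.7% to 23.3% of the summed Hox level in WT and 17.8% to 22.6% in Gde2KO. Hoxc11, of the caudal lumbar and sacral levels, read 5.88, 3.92 and 2.38 FPKM in WT and 3.32, 2.45 and 2.62 FPKM in Gde2KO. The WT libraries differed among themselves by more than the means of the genotypes did. Hoxc9, the thoracic gene that keeps limb-level identity out of the trunk, read 3.27, 2.36 and 4.79 FPKM in WT and 2.88, 3.15 and 2.40 FPKM in Gde2KO, far under Hoxc10 in every library.

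The forelimb-level and neck genes of Hoxc were all far below Hoxc10. Hoxc8, which sets motor pools of the forelimb level, read 9.48, 7.59 and 8.73 FPKM in WT and 9.67, 9.43 and 11.1 FPKM in Gde2KO, a log2 difference of 0.23 (95% interval -0.04 to 0.50, limma adjusted p = 0.882). Hoxc6, which specifies forelimb motor columns, read 5.12, 4.93 and 5.38 FPKM against 5.60, 5.57 and 3.50 FPKM. Hoxc5, which acts with Hoxa5 in phrenic motor neurons, read 1.41, 1.86 and 1.70 FPKM against 2.18, 1.48 and 1.45 FPKM. Hoxc4, of neck levels, read 2.56, 2.02 and 3.32 FPKM against 2.55, 2.14 and 2.63 FPKM. Its second exon, of 1216 bases, was assembled over 19.4% of its length in WT replicate 2 and 8.96% in Gde2KO replicate 2. In the other libraries it was assembled over 98.4% or more. Over the assembled bases that exon read 2.56, 3.37 and 3.32 FPKM in WT and 2.55, 3.92 and 2.63 FPKM in Gde2KO. The levels of all 4 genes overlapped between the groups. The annotation lets an exon of Hoxc5 lie on the Hoxc10 exon, and those bases were left out of both levels. Hoxc12 and Hoxc13, the gene of hair and nails, had no counted bases.

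In the Hoxd cluster the level stood between Hoxd8 and Hoxd11. Hoxd9, a gene of trunk and hindlimb levels, read 13.004, 14.3 and 15.7 FPKM in WT and 13.3, 14.98 and 13.1 FPKM in Gde2KO. Hoxd10, which acts with Hoxa10 and Hoxc10 in lumbar motor neurons, read 19.5, 6.77 and 15.7 FPKM in WT and 14.7, 5.16 and 13.7 FPKM in Gde2KO. The low values of replicate 2 in each genotype go with the assembly: the second exon, of 1015 bases, was assembled over 13.9% of its length in WT replicate 2, over 4.14% in Gde2KO replicate 2 and over 99.8% or more in the other 4. Over the bases that were assembled, that exon read 22.5, 21.4 and 20.6 FPKM in WT and 14.7, 25.4 and 16.8 FPKM in Gde2KO.

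Hoxd11, of hindlimb and sacral levels, read 10.9, 6.69 and 5.25 FPKM in WT and 6.44, 6.85 and 8.27 FPKM in Gde2KO. Hoxd8 read 8.94, 8.70 and 8.18 FPKM against 8.08, 9.69 and 5.21 FPKM. Hoxd3, of the hindbrain and neck, read 1.36, 1.196 and 2.11 FPKM against 1.24, 1.4996 and 1.23 FPKM. None of the 3 separated the genotypes. Hoxd1, which acts in sensory neurons, lay between 0.464 and 0.91 FPKM, and Hoxd4, of the hindbrain border, between 0.505 and 0.891 FPKM. Hoxd12 and Hoxd13, which pattern the digits, had no counted bases.

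WT replicate 1 had the highest summed level of groups 10 to 13, at 112 FPKM against 74.4 to 96.5 FPKM in the others. That was 41.0% of its Hox sum, against 32.9% to 38.8% in the others. Of the 7 members with no counted bases, Hoxc12 and Hoxd13 had a spliced transcript with the annotated intron in WT replicate 1 alone, at 0.755 and 0.569 FPKM, which fell short of the 3 libraries a counted base needs. WT replicate 1 was also the highest library for Hoxa10, Hoxa11, Hoxc10, Hoxc11, Hoxd10 and Hoxd11. It had the highest sum of all members too, at 273 FPKM, and was highest for Hoxa3, Hoxb6, Hoxb7 and Hoxb8. For Hoxc10 it lay close to Gde2KO replicate 1, at 56.6 against 56.3 FPKM. Over assembled bases, the second Hoxd10 exon read 22.5 FPKM in WT replicate 1 and 25.4 FPKM in Gde2KO replicate 2. The ratio of group 11 to group 9 was 0.602, 0.401 and 0.264 in WT and 0.388, 0.317 and 0.516 in Gde2KO. Group 11 includes Hoxd11, whose level rests on 470 counted bases and is below that of its last coding exon. The ratio thus varied more among the WT libraries than between the means of the genotypes, which were 0.422 and 0.407 (exact permutation test, two-sided, p = 0.9, 3 libraries against 3).

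Isoforms were read from the intron chains, the exact series of introns in a transcript. On Hox exons 100 different introns were assembled, of which 66 are annotated. All 32 introns present in all 6 libraries are annotated, and 31 occurred in 1 library only. Of 113 intron chains, 55 occurred in at least 2 libraries, 34 of them annotated, and 13 occurred in all 6, all annotated. They belonged to Hoxa2, Hoxa4, Hoxa9, Hoxa11, Hoxb2, Hoxb4, Hoxb7, Hoxb9, Hoxc5, Hoxc8, Hoxc11, Hoxd1 and Hoxd9. Among chains of at least 2 libraries, 3 occurred in 1 genotype only: a chain of Hoxb3 in WT replicates 1 and 3, one of Hoxb8 in Gde2KO replicates 2 and 3, and one of Hoxc8 in Gde2KO replicates 1 and 2. How many chains of other genes did so was not counted.

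Hoxc8 had 1 assembled form in every WT library and 2 in every Gde2KO library. The WT form, with the annotated intron chr15:102991216-102992562 alone, read 9.48, 7.59 and 8.73 FPKM. In Gde2KO the same form read 4.12, 4.25 and 7.12 FPKM, beside a form with a further upstream intron at 6.18, 5.77 and 4.97 FPKM. The further intron ended at the same base in all 3 libraries, chr15:102990822-102990822. It began at base 102990586 in replicates 1 and 2, where it was 237 bases long, and at base 102990558 in replicate 3, where it was 265 bases long. The form made up 60.0%, 57.6% and 41.1% of Hoxc8. Neither start is annotated, and both lie upstream of the annotated first base, 102990607.

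The sequences around the annotated start codon and around the end of the further intron show what the intron takes away. Both are from GENCODE vM21, build GRCm38, plus strand. In the start codon line the capitals mark the start codon at chr15:102990780-102990782, and in the acceptor line they mark the last 2 bases of the intron, the dinucleotide at which introns usually end.
Hoxc8 start codon, chr15:102990770-102990797: tgtacccagcATGagctcctacttcgtc
Hoxc8 acceptor, chr15:102990809-102990836: ttccaaatacaaAGgcggcgagtccctg
The exon resumes 43 bases into the coding sequence, so the form lacks the annotated start codon. The next ATG in the annotated frame is codon 138 of 242. Whether the form is translated was not measured. The assembled Hoxc8 transcripts began 203, 1008 and 1064 bases before the annotated first base in WT and 564 and 981 bases before it in Gde2KO replicates 1 and 2. In Gde2KO replicate 3 the form with the further intron began 74 bases before it, and the other form began inside the annotated exon.

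The share of the annotated Hoxc8 chain was 100% in each WT library and 40.0%, 42.4% and 58.9% in Gde2KO. A share of 100% means that no other form was assembled, which is not a count of 0 reads from one. The lowest share of a locus held by any assembled Hox transcript was 10.7%, for Hoxa10 in Gde2KO replicate 3. Forms of a smaller share may therefore be missing from the assemblies. The groups did not overlap, and the log2 difference of the odds was -6.80 (95% interval -9.12 to -4.48, limma unadjusted p = 0.000414). The size, the interval and the p all depend on the share of 0.01 by which odds were bounded. Every WT share was set to the same bound, so the WT libraries had no spread in this test. Over the 2319 isoform shares tested, limma with Benjamini-Hochberg adjustment gave it an adjusted p of 0.203, so it did not pass. The test called 1 share in all, or 0.0431%. How many of the shares tested had groups that did not overlap was not counted. Of 4513 splice acceptors assembled in exactly 3 libraries, 4.94% were in the 3 Gde2KO and 4.7% in the 3 WT libraries. Of 9 such acceptors at Hox exons, the Hoxc8 acceptor was the 1 in all Gde2KO libraries, and an acceptor of Hoxb3, the one of the 849-base intron, was the 1 in all WT libraries. Donors in exactly 3 libraries numbered 6 at Hox exons, with 1 of Hoxb3 in all WT and 0 in all Gde2KO libraries, against 4.77% and 4.5% over all genes.

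**Figure D4:**
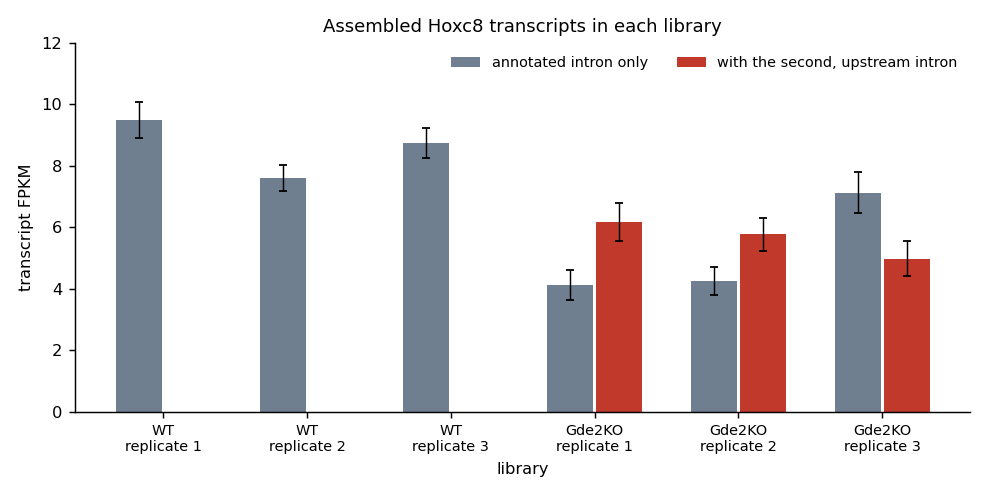
Level of each assembled Hoxc8 transcript (FPKM, bars) in the 6 libraries, with the confidence bounds that Cufflinks gives for 1 transcript in 1 library. WT libraries show the form with the annotated intron alone at 7.59 to 9.48 FPKM, and Gde2KO libraries show it at 4.12 to 7.12 FPKM beside the form with the further intron at 4.97 to 6.18 FPKM.

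The other 3 Hox genes whose shares could be tested did not pass either. For these shares each transcript was counted to the gene on whose own bases it had the largest overlap, so a transcript that joins genes counted to only 1 of them. The Hoxa9 chain with the last intron alone, 1 of several annotated, made up 48.3%, 64.5% and 63.9% of the Hoxa9 level so defined in WT and 68.5%, 49.9% and 41.3% in Gde2KO (limma adjusted p = 0.921). In Gde2KO replicate 1 that share left out a transcript joined to Hoxa10: the chain read 9.53 FPKM there, and all Hoxa9 transcripts with that intron, the joined one included, read 18.9 FPKM. The annotated chain of Hoxb9 made up 60.8%, 54.8% and 60.7% in WT and 74.9%, 64.9% and 100% in Gde2KO (limma adjusted p = 0.884). That of Hoxd9 made up 30.6%, 100% and 32.2% in WT and 100% in each Gde2KO library (limma adjusted p = 0.878). For Hoxb9 the rest was spliced from upstream, by an unannotated intron of 9778 bases that joins exons at the neighbouring RNA Gm53 to the second Hoxb9 exon. Those joined forms read 3.93, 5.16 and 4.70 FPKM in WT, 3.79 and 3.98 FPKM in Gde2KO replicates 1 and 2, and were not assembled in replicate 3. With all of them counted to Hoxb9, the annotated share in Gde2KO replicate 1 was 65.0% in place of 74.9%. The shares were not tested again with joined transcripts counted to both genes.

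Hoxa9 was also spliced inside the coding part of an exon that its main isoform keeps whole. An annotated isoform removes 173 bases there, chr6:52225618-52225790 on the minus strand. The capitals below mark the first 2 and the last 2 bases of this intron, GT and AG, written along the gene.
Hoxa9 inner donor, chr6:52225778-52225805: ggcgccggacggcagGTatatgcgctcc
Hoxa9 inner acceptor, chr6:52225603-52225630: ggttctcctccAGttgatagagaaaaac
This chain read 9.09 and 6.57 FPKM in WT replicates 1 and 2, was not assembled in WT replicate 3, and read 4.39, 6.77 and 1.91 FPKM in Gde2KO. In 3 libraries, WT replicate 3 and Gde2KO replicates 1 and 2, the same acceptor was joined to a donor 4450 bases upstream, so it was used in all 6. In 2 of those 3, WT replicate 3 and Gde2KO replicate 1, that upstream exon was spliced in turn to Hoxa10.

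Hoxb8 and Hoxd8, paralogs of group 8, shared a splice feature that the third paralog lacked. In both, the first coding exon was joined to 2 acceptors 3 bases apart, and both introns are annotated and were assembled in all 6 libraries. The lines show the joined exons, with the 3 bases that only the longer form keeps in capitals, all on the plus strand of GRCm38. In Hoxc8 the capitals mark the first 3 bases of the second exon, where 1 acceptor was assembled.
Hoxb8 longer form, from chr11:96283373-96284176: gatgcgccctcaagCAGccgccggacgc
Hoxb8 shorter form, from chr11:96283373-96284179: gatgcgccctcaagccgccggacgcagg
Hoxd8 longer form, from chr2:74706105-74706527: gatgagaccacaagCAGctcctggtaga
Hoxd8 shorter form, from chr2:74706105-74706530: gatgagaccacaagctcctggtagacgg
Hoxc8, from chr15:102991202-102992576: gatgagaccccacgCTCctgggcggcgc
The 3 bases lie in the coding sequence of both genes and keep the frame. In Hoxb8 the longer form made up 36.1%, 41.0% and 42.9% of the spliced level in WT and 65.6%, 41.1% and 54.8% in Gde2KO. In Hoxd8 it made up 51.5%, 56.8% and 69.5% in WT and 80.7%, 68.8% and 89.2% in Gde2KO. The last of these rests on a fragment of 185 bases read at 47.2 FPKM, under the 200 bases asked of a transcript for gene levels. The shares overlapped between genotypes in each gene, and neither gene entered the test of shares, since none of its intron chains was assembled in all 6 libraries.

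**Figure D5:**
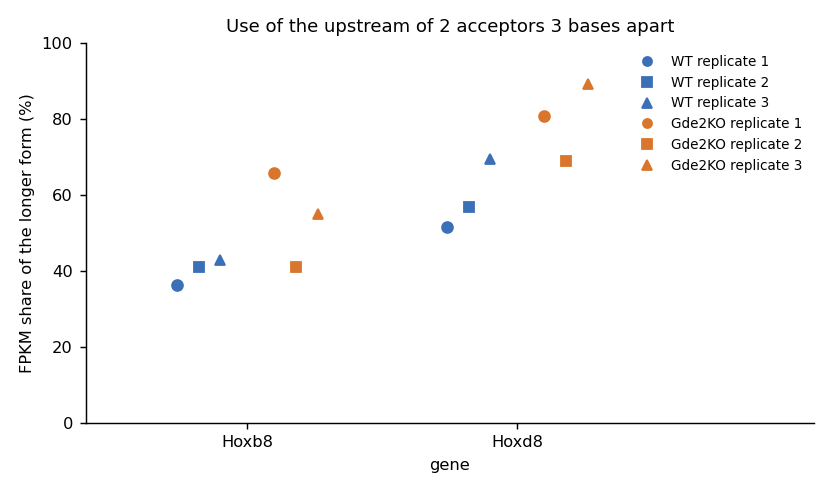
Share of the longer form (percent of the FPKM of transcripts across the intron) for Hoxb8 and Hoxd8, with a point per library. WT and Gde2KO points overlap, at 36.1% to 65.6% for Hoxb8 and at 51.5% to 89.2% for Hoxd8.

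Further introns varied between libraries. Hoxb8 had a further 5′ intron of 317 bases in WT replicate 1 and the 3 Gde2KO libraries, at 17.96 FPKM and 5.49 to 6.93 FPKM. Hoxa10 was assembled with 2 introns that share an acceptor, of 1178 bases at 4.33 to 7.25 FPKM and of 7497 bases at 6.51 to 12.7 FPKM, each in all 6 libraries. Hoxa7 had an upstream intron of 604 bases in 5 libraries, at 7.04 to 17.5 FPKM, and one of 2238 bases in 3. Hoxc6 had a distal start across an annotated intron of 10888 bases in 5 libraries at 0.873 to 3.43 FPKM, and its proximal intron of 728 bases at 4.86 to 7.87 FPKM in all 6. Hoxc9 had an unannotated upstream intron of 436 bases in WT replicates 1 and 3 and Gde2KO replicate 1, at 3.59, 5.37 and 2.34 FPKM. Hoxd8 had 2 unannotated upstream introns in WT replicate 1 and Gde2KO replicate 2 only, the same libraries in which its last exon was assembled in full. Hoxb6 had its distal intron of 6053 bases in 4 libraries, at 1.21 to 12.1 FPKM, and an acceptor 1 base further on in 2. The 12.1 FPKM, in Gde2KO replicate 1, came from a transcript that began at the last base before the intron. The distal Hoxb6 exon read 1.27 FPKM in that library. Hoxc11 had a donor 4 bases downstream of the annotated one in 2 libraries, at 0.418 and 0.581 FPKM. Hoxa3 reached back over an intron of 17046 bases in 5 libraries, at 0.848 to 2.07 FPKM, and over a further one of 12101 bases in 2.

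Neighbouring Hox genes were held in single transcripts, some by splicing and some by a continuous exon. A transcript counted as a link when it held at least 50 bases of Hox exons of both genes. Hoxa5 and Hoxa6 were linked in all 6 libraries, by an exon that runs unspliced from one gene to the other. Hoxc5 and Hoxc10 counted as linked in 6, but only through an exon which the annotation gives to both genes. Each of these transcripts ended at or before base 102971771, and the Hoxc5 coding transcript begins at base 103013815. Hoxd3 and Hoxd4 also counted as linked in 6, and that count includes transcripts that hold an exon annotated to both. An intron from a Hoxd4 exon to a Hoxd3 exon, of 15245 bases, was assembled in 3 libraries, at 0.481 FPKM in WT replicate 2 and at 1.78 and 0.772 FPKM in Gde2KO replicates 1 and 3. Hoxd10 was linked with Hoxd11 in 5 libraries. Hoxa9 was linked with Hoxa10 in 2 libraries, and Hoxb5 with Hoxb6, Hoxc4 with Hoxc5 and Hoxc4 with Hoxc6 in 1 each. The Hoxd11 exon was spliced to the second Hoxd10 exon over 9733 bases in 5 libraries, at 6.35, 7.92 and 10.5 FPKM in WT and 14.4 and 6.64 FPKM in Gde2KO replicates 2 and 3. The links found in at least 2 libraries occurred in both genotypes.

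The genes that act with Hox proteins or keep their clusters also gave no call. Of 9 Hox cofactors, all tested, 0 were called, and 6 estimates lay below 0 and 3 above, around a median of -0.09 (log2). Pknox2, a Meis-related cofactor, had the smallest p: it read 6.52 ± 0.264 FPKM in WT and 5.57 ± 0.439 FPKM in Gde2KO (SD, n = 3, limma adjusted p = 0.882), without overlap. Meis3 followed at 8.83 ± 0.158 and 8.20 ± 0.677 FPKM (limma adjusted p = 0.882). Meis2 and Pbx2, DNA-binding partners of Hox proteins, were the most abundant, at means of 17.3 and 11.2 FPKM over the 6 libraries.

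Of 27 chromatin regulators 25 were tested and 0 called, with 11 estimates above 0, 14 below and a median of -0.04. Rbbp7, a histone-binding subunit of Polycomb and other complexes, read 34.3 ± 2.42 FPKM in WT and 41.5 ± 3.85 FPKM in Gde2KO (SD, n = 3, limma adjusted p = 0.882). Ring1, a ubiquitin ligase of Polycomb complex 1, read 7.48 ± 0.406 and 5.89 ± 0.925 FPKM (limma adjusted p = 0.882). Neither overlapped between the groups. Of the 25 regulators 5 did not, against 10.9% of all genes tested. Cbx6, a Polycomb chromodomain protein, was the most abundant at a mean of 51.0 FPKM.

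All 3 Cdx genes, the embryonic activators of Hox clusters, were listed at 0 in every library. Of the 7 genes in this list 3 were tested and 0 called, with all 3 estimates below 0. Rarg, a retinoic acid receptor, read 2.21 ± 0.205 FPKM in WT and 1.83 ± 0.219 FPKM in Gde2KO (SD, n = 3, limma adjusted p = 0.882), Gdf11, a signal for caudal Hox genes, a mean of 8.92 FPKM over the libraries and Rarb a mean of 2.41 FPKM. Of 14 homeobox genes of the brain, 11 were listed at 0 in every library. Gbx2 and En1, which are also used by spinal interneurons, stood at means of 1.65 and 1.83 FPKM and were not called.

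Among 19 genes of motor neuron columns and pools 17 were tested and 0 called, with 5 estimates above and 12 below 0. Aldh1a2, a retinoic acid-synthesising enzyme of limb-level motor neurons and also of meninges, read 2.73, 1.76 and 2.74 FPKM in WT and 0.975, 1.72 and 1.5003 FPKM in Gde2KO (limma adjusted p = 0.882). The summed level of 5 meningeal markers was 74.0 to 98.8 FPKM in WT and 39.4, 84.3 and 86.4 FPKM in Gde2KO, lowest in the library where Aldh1a2 was lowest, and its part in the result was not tested. Foxp1, the Hox cofactor of limb motor columns, read 2.63 ± 0.221 and 2.35 ± 0.00907 FPKM (SD, n = 3, limma adjusted p = 0.882). Slc18a3 and Slc5a7, the transporters of cholinergic synapses, were the most abundant at means of 49.9 and 30.6 FPKM.

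RNA from within and beside the clusters did not set the genotypes apart. Of 43 annotated genes inside the clusters of non-coding or similar types, 30 were listed at 0 in every library, 4 were tested and 0 were called. Hotairm1, a long non-coding RNA of the Hoxa cluster, read 5.36, 4.36 and 5.92 FPKM in WT and 5.51, 5.40 and 7.77 FPKM in Gde2KO (limma adjusted p = 0.882). Gm53, the RNA upstream of Hoxb9, read 3.46, 2.47 and 2.87 FPKM against 3.18, 3.28 and 3.76 FPKM (limma adjusted p = 0.882). Gm27477, a short RNA beside Hotairm1 with too few bases for the test, had the highest mean, 5.92 FPKM. Evx1 and Evx2, the homeobox genes at the 5′ ends of Hoxa and Hoxd, stood at means of 0.652 and 0.331 FPKM.

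Of the 24 protein-coding genes that flank the clusters, 3 on each side, 19 were tested and 0 called, with 11 estimates above 0, 8 below and a median of 0.04 (log2). Hnrnpa1, an RNA-binding protein gene beside Hoxc, had the smallest p (61.0 ± 16.7 FPKM in WT, 82.6 ± 7.37 FPKM in Gde2KO, SD, n = 3, limma adjusted p = 0.882). Hibadh, a mitochondrial enzyme gene beside Hoxa, followed (45.3 ± 0.416 and 49.0 ± 3.11 FPKM, SD, n = 3, limma adjusted p = 0.882). The most abundant neighbours were Atp5g3 and Atp5g1, subunits of the ATP synthase, at means of 274 and 264 FPKM.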

How the data were processed

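Per the submitters' processing notes, reads were processed with FastQC (version not given in the sources used here), TopHat2 2.1.1, Cufflinks 2.2.1 and Cuffdiff 2.2.1 on mm10. Each deposited file is the Cufflinks assembly of 1 library, and its FPKM values and confidence bounds were made by the authors; fragment counts are not in them, so absolute depth is unknown. Transcripts of at least 200 bases were matched to GENCODE vM21 on GRCm38 by exon overlap and strand. A gene's level is the FPKM summed at each counted base, averaged over bases that no other gene on the strand shares and that were assembled in at least 3 libraries, and divided by a median-of-ratios factor. A gene entered the test with 200 counted bases or more and 1 FPKM or more on average over the libraries. The test was limma 3.58.1 (R 4.3.3) on log2(FPKM + 0.1), which understates changes of low genes. Isoform shares were tested for exact intron chains assembled in all 6 libraries, if the share averaged 10% to 90% and the gene 5 FPKM or more; the odds were bounded at a share of 0.01. Scripts were tested on simulated data. Members and lists were chosen with earlier results of these data known. One member is not reported here. The rule named every Hox gene, chains of at least 2 libraries, and from each list the 2 genes of smallest p and the 2 of highest mean.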

Additional observations from a re-analysis of the deposited data

How the results depend on the processing

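No Hox gene was called under any of the alternatives run, among them other pseudocounts, filters, scalings, level definitions and each library left out in turn. Counts over all genes moved more: 15 genes were called, against 4 with a pseudocount of 0.01, 1 at a mean FPKM of at least 5, 4 with values listed at 0 as missing, 2 with the replicate block and 10 to 26 without single libraries. Isoform shares called numbered 1, against 0 with the replicate block and 0 to 3 without single libraries. Leaving the gene models that join Hox genes (Gm28308, Gm28230 and Gm28309) out of the annotation was chosen after seeing the data. Replicate numbers are shared by the genotypes, and the labels do not say whether a number marks a shared litter or batch. Over all genes tested, same-numbered libraries did not deviate together (correlations of 0.01, 0.04 and -0.07), which cannot exclude a shared litter or batch. With the block no Hox gene was called, and the annotated Hoxc8 chain had a limma adjusted p of 0.873; without single libraries that p ran from 0.219 to 0.565.

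Differences near 0 changed sign with the setting, and the cause was not tested. The log2 difference became 0.12 for Hoxa4 with the plain sum of transcripts, -0.021 for Hoxa5 and -0.0096 for Hoxc5 with no scaling, -0.049 for Hoxa6 as fragments per gene and 0.17 for Hoxd8 with no length minimum. Without single libraries it ran from -0.13 to 0.067 for Hoxa4, from -0.0093 to 0.029 for Hoxa5, from -0.036 to 0.15 for Hoxa6, from -0.18 to 0.050 for Hoxb6, from -0.41 to 0.044 for Hoxb9, from -0.26 to 0.092 for Hoxc4, from -0.16 to 0.12 for Hoxc5, from -0.22 to 0.12 for Hoxc6, from -0.49 to 0.0076 for Hoxc9, from -0.34 to 0.044 for Hoxd3, from -0.40 to 0.041 for Hoxd8, from -0.12 to 0.013 for Hoxd9, from -0.79 to 0.15 for Hoxd10 and from -0.25 to 0.26 for Hoxd11. The log2 difference of the odds of the Hoxa9 chain tested ran from -0.78 to 0.030. Differences between genotypes in the share of the summed level, in percentage points, became -0.189 for Hoxa, -0.13 for Hoxb and 0.306 for Hoxc on coding sequence only, -0.0852 for Hoxa and -0.0648 for Hoxb with no length minimum, -0.197 for Hoxb, 0.142 for Hoxc and -1.14 for Hoxd with the plain sum, -1.14 for Hoxb and 0.00597 for Hoxc as fragments per gene, and for Hoxd -0.301 on bases shared with no other protein-coding gene and -0.322 without the joining models. Without single libraries these ran from -0.327 to 1.05 for Hoxa, from -0.744 to 0.856 for Hoxb, from -1.42 to 0.259 for Hoxc, from -1.12 to 1.10 for Hoxd and from -0.767 to 1.88 for groups 6 to 9.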
